A study of Drosophila melanogaster with 46 samples.

Results

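Chromatin immunoprecipitation sequencing (ChIP-seq) peaks of the insulator proteins CTCF, Pita, Su(Hw) and CP190 were examined at 10 genes of the Notch pathway, N, Dl, Ser, fng, neur, kuz, Psn, Su(H), mam and H. A peak counted for a gene when it overlapped the gene's span or the 5 kb on either side of it, on the dm6 genome build. Of the 14902 peaks in 7 lists on the main chromosomes, 43 met this rule, and they lay at 7 of the 10 genes. The series holds 46 samples of whole animals in 15 groups. Wild-type adults gave 1 list each for CTCF, Pita and Su(Hw), from groups labelled with 2 samples each. Wild-type larvae also gave 1 list each for these proteins, from groups of 4, 2 and 2 samples. The animals of all these groups carry the genotype dCTCFwt in the strain y1w1118, and CTCF was precipitated through an HA tag. The larval CP190 list names no genotype, and 14 of the 18 CP190 samples come from larvae with dCTCFdeltaCP, alone or with SuHwdelta114, PitadeltaCP1 or both, so the genotype behind it is unknown. The protocol describes larvae of the third instar, and the labels state no age for the adults.

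Notch is a receptor on the cell surface that is activated by ligands on neighbouring cells, then cut, so that its inner part enters the nucleus and switches genes on with a DNA-binding partner. In flies it sets boundaries and cell fates in wings, bristles, eyes and muscle. CTCF, Pita and Su(Hw) bind DNA through C2H2 zinc fingers and CP190 joins them at insulators and promoters. The 5′ end of N is known as the border of a chromatin domain bound by insulator proteins.

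Each peak carried 1 fold enrichment over a control that is not named, as deposited by the authors, and no value per sample. There is therefore no replicate error, read depth is unknown, and no difference below was tested. Folds are read within a list only, against its median and ranks, since the lists were normalised separately. The irreproducible discovery rate (IDR) is given as −log10, where a higher value means that a peak was more alike between the 2 input lists of the authors' comparison. Median fold was 12.5 for adult and 7.95 for larval CTCF peaks, 7.12 and 5.97 for Pita, 9.38 and 6.81 for Su(Hw), and 5.02 for larval CP190.

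Of the 10 genes, the receptor gene N had the CTCF and Pita peaks of highest fold, at its 5′ end. The gene spans chrX:3134870-3172221, 37.4 kb. Adult CTCF was enriched 174-fold there, rank 14 of 674 peaks, and larval CTCF 168-fold, rank 8 of 808. Adult Pita reached 80.7-fold, rank 36 of 1498, and larval Pita 43.8-fold, rank 50 of 1213. The 4 summits lay 103 to 150 bp outside the gene and within 47 bp of each other. They fell in the 338 bp between N and the end of the neighbouring gene kirre, which encodes an adhesion protein of myoblast fusion, at 188 to 235 bp from that end. A weak larval Pita peak of 2.18-fold, with its summit 980 bp inside N, overlapped the far side of the larval CTCF peak. Together these peaks covered bases 3134144 to 3135968 of chromosome X. The strong peaks had −log10 IDR of 2.09 for adult and 2.46 for larval CTCF, and of 2.33 for adult and 3.56 for larval Pita. The highest values in these lists were 2.196 for adult and 2.74 for larval CTCF, and 2.51 for adult and 3.63 for larval Pita. The IDR values of different lists therefore do not rank CTCF against Pita, and each is read within its own list only.

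**Figure D1:**
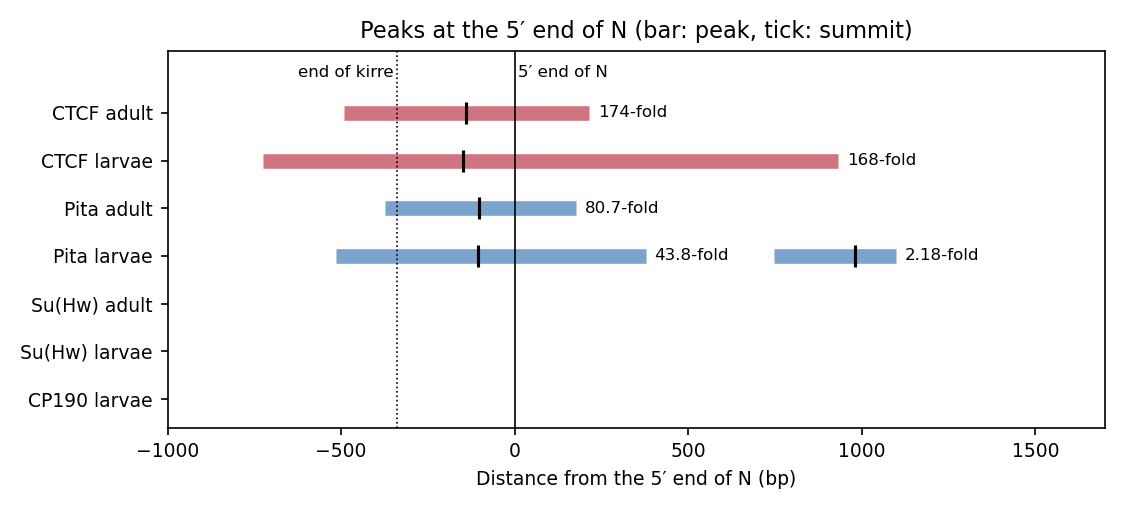
Peaks at the 5′ end of N, with distance from that end in bp on the horizontal axis and the 7 peak lists on the vertical axis, bars showing the extent of each peak and ticks its summit. The 4 strong CTCF and Pita summits sit 103 to 150 bp outside the gene, and the rows of both Su(Hw) lists and of CP190 are empty.

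No CP190 peak of the larval list touched this site. The nearest lay 26.6 kb away inside N, at 2.74-fold, and, on the other side, 184 kb away at 41.0-fold near CG3603. Of all 808 larval CTCF peaks 325 (40.2%) had no CP190 peak, and of the 198 that overlapped a larval Pita peak 39 (19.7%) had none. Of the 20 larval CTCF peaks of highest fold 11 had none, and of the 5 among these 20 on a larval Pita peak 3 had none. CP190 signal at sites without a listed peak was not analysed here, and the genotype behind the CP190 list is unknown.

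Past the other end of N a further site held Pita at both stages together with CP190, at bases 3172752 to 3174186. Adult Pita was enriched 26.0-fold and larval Pita 22.9-fold, and CP190 reached 21.1-fold, the highest of the 14 CP190 peaks at the pathway genes. Adult CTCF had a weak peak of 2.09-fold at the same place. The summits lay 1015 to 1037 bp beyond N, and 96 to 118 bp from an end of CG18508 or, for adult Pita, equally of Fcp3C. In this CP190 list of unknown genotype, the strong Pita site beside CP190 at this end thus stood against the stronger CTCF and Pita site without a CP190 peak at the 5′ end.

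Inside N the lists held a larval Pita peak of 2.03-fold, at the CP190 peak of 2.74-fold and 9425 bp from the upper end. At 5335 bp beyond the gene, nearer to an end of the cyclic AMP phosphodiesterase gene dnc, a CP190 peak of 7.82-fold overlapped a larval Su(Hw) peak of 4.75-fold. The adult Su(Hw) peak of the same site, at 4.22-fold, began 5038 bp from N and was left out by the window, whereas the larval one began at 4979 bp. N thus had peaks in 6 of the 7 lists, a combination held by 11 of 13946 protein-coding genes (0.0789%), N included. Peaks in 6 lists in any combination were found at 178 genes (1.28%), and these shares are over genes of every length. The rarity of the combination depends on the window. With the adult Su(Hw) peak that missed it N would have peaks in all 7 lists, as 155 genes (1.11%) did. Among the genes with the same 6 lists whose windows do not overlap that of N, the nearest to N by highest fold was the retinal homeobox gene Rx, at a distance of 2.18 log2 units, followed by Got1 at 4.96 and CG13829 at 5.29. At Rx the highest folds were 139 for adult and 120 for larval CTCF, 53.9 for adult and 12.5 for larval Pita, 4.53 for larval Su(Hw) and 38.8 for CP190.

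**Figure D2:**
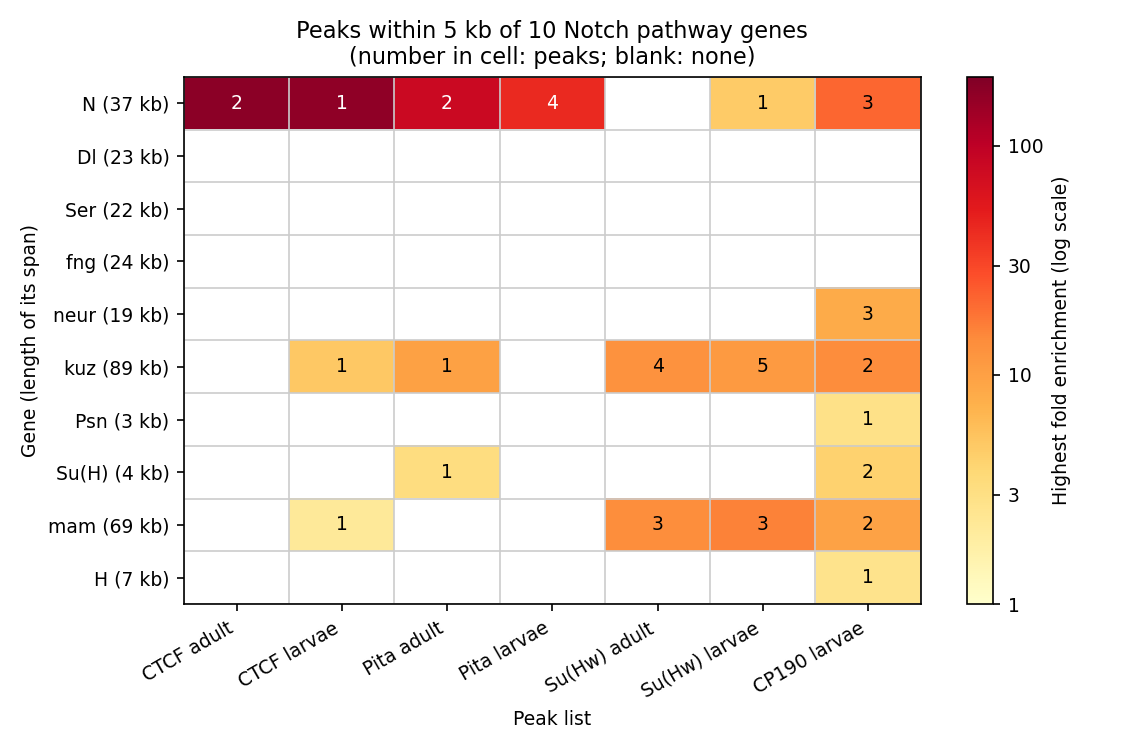
Number of peaks (figure in each cell) and highest fold enrichment (colour, log scale) of the 7 lists within 5 kb of each of the 10 genes, named with the length of their span. N holds the high folds, with 174 for adult CTCF, and the rows of Dl, Ser and fng are empty.

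The ligand genes had no peak. Dl encodes Delta and Ser encodes Serrate, membrane-bound proteins that activate Notch on the next cell. Neither Dl (chr3R:19302731-19326217, 23.5 kb) nor Ser (chr3R:27172090-27194267, 22.2 kb) had a peak of any list in its window. The same held for fng (chr3L:20925891-20949512, 23.6 kb), whose product is a glycosyltransferase that adds sugar to Notch and shifts its response from Serrate towards Delta. Some peak fell in the windows of 7 of the 10 members and of 73.3% of all protein-coding genes. Among protein-coding genes of 10 to 30 kb the share was 87.7%, and of the 4 members in that class, Dl, Ser, fng and neur, only neur had one. CP190 was present at 76.9% of the genes of that class and at 1 of the 4 members, neur.

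Dl stood far from all listed peaks. The nearest was a CP190 peak of 6.23-fold near unc79, 63.2 kb from the gene, and on the other side a CP190 peak of 4.87-fold near Aptx lay 76.6 kb away. The stretch between them, bases 19239483 to 19402778 of chromosome arm 3R, measured 163 kb. Of 13946 protein-coding genes 206 (1.48%) were as far or farther from any peak, 16 of them among the 1314 genes of 10 to 30 kb. The nearest Su(Hw) peaks to Dl were 82.1 kb away at both stages, with 21.4-fold in adults and 15.0-fold in larvae, and the nearest CTCF peaks 165 kb in adults and 164 kb in larvae.

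Around fng the stretch without a peak was 116 kb. It was bounded by Su(Hw) peaks 14.8 kb from the gene, of 7.75-fold in adults and 8.60-fold in larvae, with a CP190 peak of 11.5-fold at 15.0 kb, and by a CP190 peak of 3.88-fold 77.5 kb away. Of the protein-coding genes 8.34% were as far from any peak. Ser lay closest to one, with a CP190 peak of 4.18-fold near CG34293 only 6.21 kb away, just past the window, and a larval CTCF peak of 5.87-fold at 31.5 kb on the other side. A distance of this size or more was seen for 22.6% of genes.

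**Figure D3:**
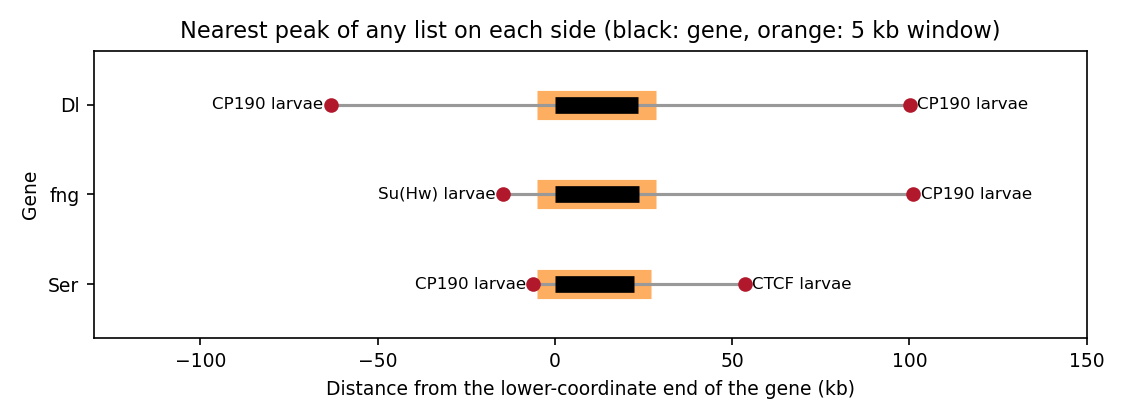
Distance in kb from the lower-coordinate end of Dl, fng and Ser to the nearest listed peak on each side, with the gene in black and its 5 kb window in orange. The nearest peak on either side of Dl is a CP190 peak, at 63.2 kb and 76.6 kb from the gene.

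Among the genes whose products process Notch or its ligands, kuz had the most peaks. It encodes the metalloprotease Kuzbanian, which makes the activating cut outside the membrane, and with 89.3 kb (chr2L:13550139-13639411) it is the longest gene of the 10. It held 13 peaks, and 9 of these were Su(Hw) peaks inside the gene. In adults the Su(Hw) folds along the gene were 5.08, 8.95, 12.8 and 4.74, and in larvae 3.77, 8.74, 11.2 and 4.41 at the same 4 places. Summits of the 2 stages were 6 to 22 bp apart at these places. Larvae had a further Su(Hw) peak of 4.48-fold, 224 bp from an end of the non-coding gene lncRNA:CR44973. The 5 Su(Hw) sites were spaced by 6.83 to 22.5 kb and none overlapped a CP190 peak.

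CP190 flanked kuz instead. At the lower-coordinate end a CP190 peak of 14.1-fold had its summit 530 bp outside kuz and 281 bp from an end of the gene B4, which is nearer. Beyond the upper end, between kuz and ics, a CP190 peak of 8.70-fold at bases 13640557 to 13642758 of 2L overlapped an adult Pita peak of 9.91-fold and a larval CTCF peak of 4.99-fold. Neither of those had a partner of its own protein at the other stage. The nearest adult CTCF peak was 49.0 kb from kuz and the nearest larval Pita peak 90.7 kb.

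The gene neur, for Neuralized, a ubiquitin ligase that drives ligand uptake in the signal-sending cell, had CP190 peaks only. It spans chr3R:9020348-9039471, 19.1 kb. The strongest, of 8.22-fold, had its summit 301 bp outside the gene and 25 bp from an end of tgo, a transcription factor gene. At the other end a peak of 4.07-fold lay 224 bp past neur, and a weaker one of 2.74-fold had its summit 6.06 kb away near Kcmf1 and reached into the window by its edge. Psn encodes Presenilin, the catalytic subunit of γ-secretase that cuts Notch within the membrane, and spans chr3L:20432468-20435156. A single CP190 peak of 2.83-fold marked it, with the summit 13 bp from its lower-coordinate end and rank 3469 of 4220.

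Among the nuclear partners of Notch, Su(H) encodes Suppressor of Hairless, the DNA-binding protein of the pathway, and H encodes Hairless, which brings corepressors to it. They span chr2L:15039488-15043334 and chr3R:20621938-20628915. At Su(H) a CP190 peak of 4.19-fold had its summit 54 bp outside the lower-coordinate end and overlapped an adult Pita peak of 3.25-fold, 65 bp from that end. The nearest larval Pita peak was 17.3 kb from the gene. A weaker CP190 peak of 2.90-fold in the window belonged closer to yellow-c, 29 bp from its end. At H the only peak was CP190 at 2.66-fold, 72 bp outside the lower-coordinate end, and a stronger one of 6.29-fold near Pi3K92E began 5559 bp from H, outside the window.

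The coactivator gene mam, for Mastermind, is 69.2 kb long (chr2R:13991203-14060356). It had CP190 of 9.67-fold at its lower-coordinate end, 230 bp outside the gene, and Su(Hw) at 3 sites inside it. Adult Su(Hw) was enriched 13.7-fold, 8.63-fold and 7.84-fold at these sites in order along the chromosome, and larval Su(Hw) 15.9-fold, 4.86-fold and 4.30-fold. The larval peak of 15.9-fold, rank 539 of 3374, was the highest Su(Hw) peak at the 10 genes. It ran over chr2R:14043899-14044853. None of the 3 sites overlapped CP190, and they lay 5.29 to 16.1 kb from the upper end. Also inside mam were a lone CP190 peak of 2.76-fold, rank 3540 of 4220, and a lone larval CTCF peak of 2.15-fold, rank 740 of 808.

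**Figure D4:**
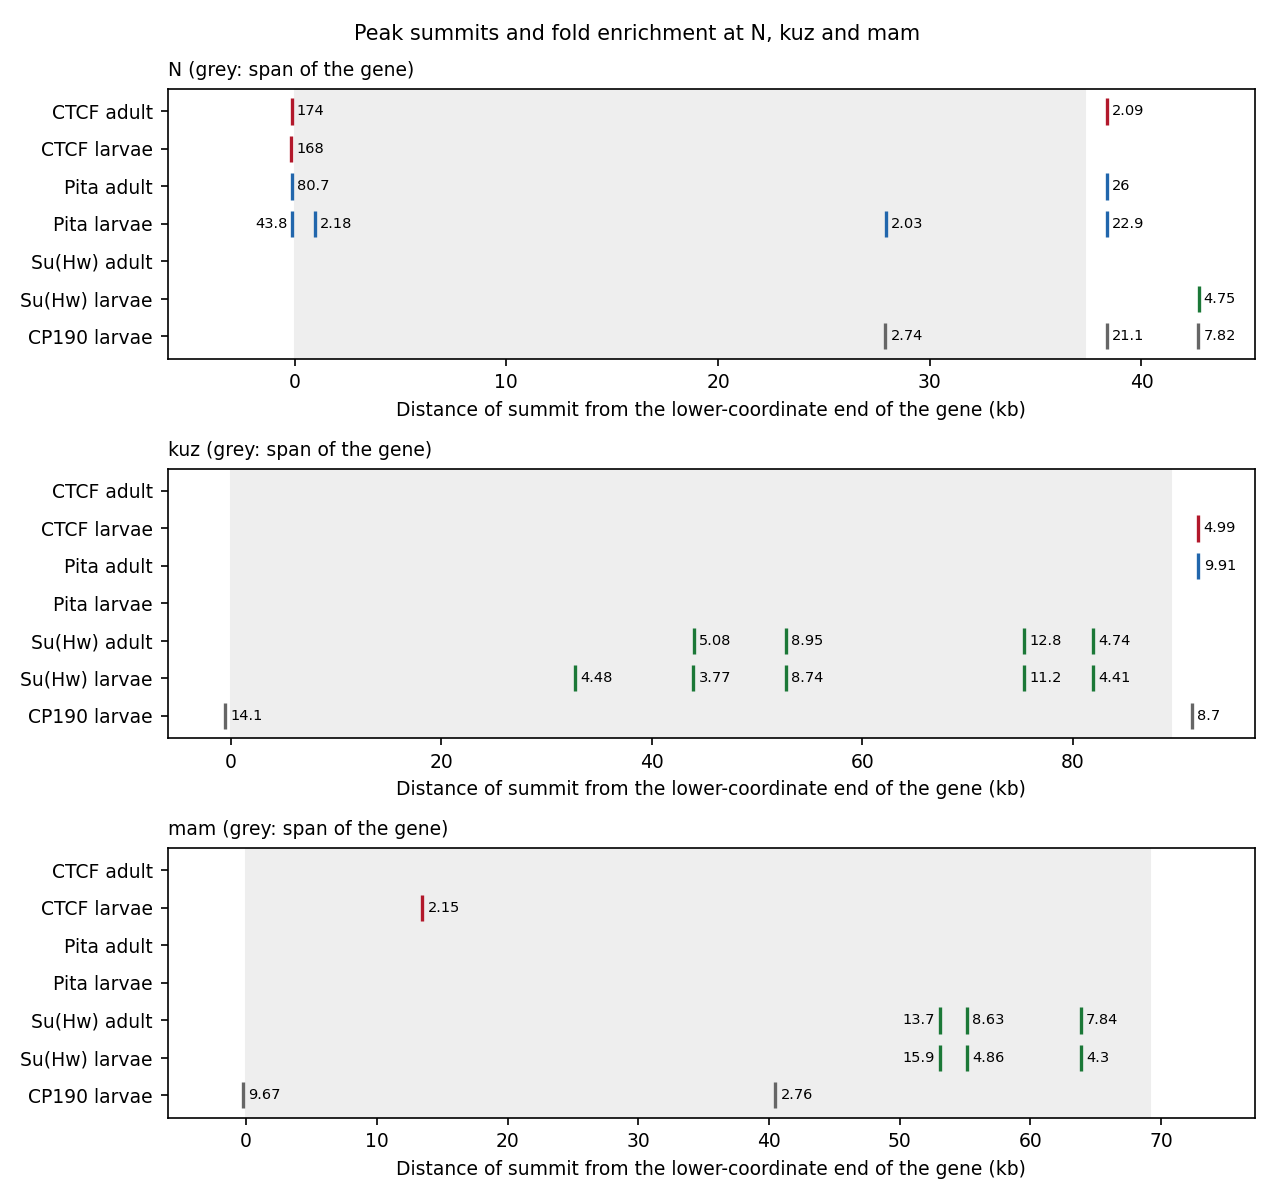
Summits of all listed peaks at N, kuz and mam, with distance from the lower-coordinate end of the gene in kb on the horizontal axis, the 7 lists on the vertical axis and the fold enrichment printed beside each summit. CTCF and Pita peaks gather at the ends of N, and Su(Hw) peaks lie within kuz and mam, where 7 places carry them at both stages.

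Read over the 10 genes by protein, CP190 was the most widespread. CP190 had peaks at 7 of the 10 members against 62.5% of protein-coding genes, 14 peaks in all. With only peaks whose −log10 q was no lower than the list's median, CP190 was at 4 members and larval CTCF at 1, and 4 members had a peak of any list. The share of protein-coding genes was not computed at that cut, so the shares given here, all from the full lists, do not apply to it. Adult CTCF was at 1 member (10.2% of protein-coding genes) and larval CTCF at 3 (12.3%). Adult Pita was at 3 (25.0%) and larval Pita at 1 (22.0%), adult Su(Hw) at 2 (27.3%) and larval Su(Hw) at 3 (28.9%). None of these differences was tested, and each count rests on 10 genes. The combination of lists found at kuz was held by 14 protein-coding genes (0.100%) and that of mam by 45 (0.323%), whereas CP190 alone, as at neur, Psn and H, was found at 2858 (20.5%). These shares are over genes of every length. The combination of mam depends on a larval CTCF peak of 2.15-fold, and that of kuz on CTCF and Pita peaks of 1 stage each, nearer to ics. Peaks in 5 lists, as at kuz, were found in any combination at 7.03% of protein-coding genes, and in 4, as at mam, at 5.00%. Of the C2H2 peaks 28 of 29 lay at N, kuz and mam, the 3 members over 30 kb, and the other was the adult Pita peak at Su(H). These 3 members have the longest windows, and places bound at both stages count once for each stage. The share of all C2H2 peaks that lies at genes of that length was not computed. The 4 members of 10 to 30 kb had no C2H2 peak. Of protein-coding genes of that length 16.2% had adult CTCF, the lowest C2H2 share, and 46.0% larval Su(Hw), the highest. For genes over 30 kb any list gave a peak at 3 of 3 members, against 92.1% of protein-coding genes. Adult CTCF was at 1 of the 3 (29.9%) and larval CTCF at 3 (33.3%), adult Pita at 2 (43.1%) and larval Pita at 1 (39.1%). Adult Su(Hw) was at 2 of the 3 (76.9%), larval Su(Hw) at 3 (78.1%) and CP190 at 3 (75.8%). The members under 10 kb, Psn, Su(H) and H, all had CP190, as did 60.2% of protein-coding genes of that length, where 70.7% had a peak of some list. None of the CP190 peaks at Psn, Su(H) and H reached the list's median −log10 q.

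Of the 16 Su(Hw) peaks 15 had their summit within a member gene, against 2 of 14 CP190 peaks, 2 of 8 Pita peaks and 1 of 5 CTCF peaks. Those 15 were 8 sites, 7 of them counted at both stages, in kuz and mam, whose long spans fill most of their windows. At N, kuz and mam 7 of 7 adult and 8 of 9 larval Su(Hw) summits in the windows were inside the gene, against 84.1% of adult and 83.9% of larval ones over all protein-coding genes longer than 30 kb. For CP190 they were 2 of 7 at these members, against 44.6%. For CTCF they were 0 of 2 in adults (57.2%) and 1 of 3 in larvae (58.9%), and for Pita 0 of 3 in adults (48.1%) and 2 of 4 in larvae (45.4%). Su(Hw) thus lay within long genes more often than the other proteins in the whole lists too. Summits within 500 bp of an end of any annotated gene made up 9 of the 14 CP190 peaks, where the whole list had 70.9%. For Su(Hw) they were 0 of 7 adult peaks (20.5% of the list) and 1 of 9 larval peaks (20.6%). For CTCF they were 2 of 2 adult (50.7%) and 1 of 3 larval peaks (50.6%), and for Pita 3 of 4 adult (61.7%) and 2 of 4 larval peaks (66.1%). Su(Hw) thus lay near gene ends least often in the whole lists too. The CP190 peaks within 500 bp of an end of a member itself numbered 6, with folds of 2.66 to 9.67, while the other 8 ran from 2.74 to 21.1.

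**Figure D5:**
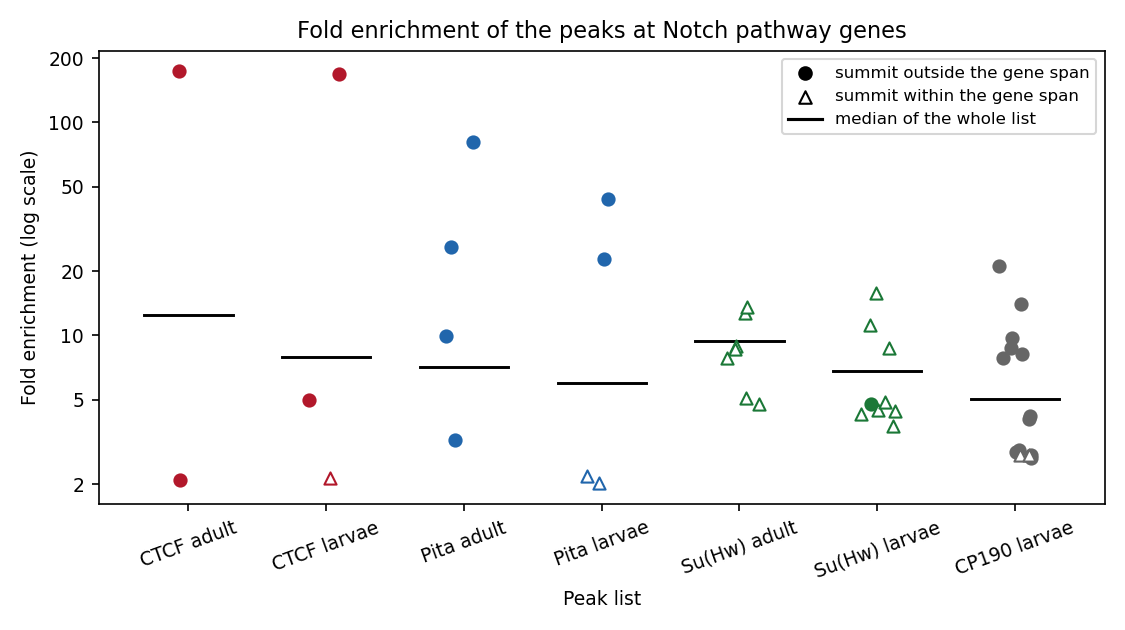
Fold enrichment (log scale) of the 43 peaks at the 10 genes by peak list, filled circles with the summit outside and open triangles within the gene span, and lines for the median of each whole list. The 7 adult Su(Hw) peaks all lie within genes, between 4.74 and 13.7, and CTCF peaks are at 168 and above or at 4.99 and below.

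Joined by overlap over all lists and both stages, the peaks made 24 sites. CP190 alone made 9 of them and Su(Hw) without CP190 made 8, and these kinds were 25.6% and 30.5% of the 7418 sites of the genome. A single Su(Hw) site had CP190, the one near dnc, where Su(Hw) with CP190 and no other C2H2 protein made up 13.1% of the sites of the genome. The CTCF and Pita combination occurred at 3 sites, with CP190 at the upper end of N and beside kuz, and without it at the 5′ end of N. CTCF with Pita but neither CP190 nor Su(Hw) was the rarer form, at 45 sites (0.607%) genome-wide. With CP190 and without Su(Hw) there were 191 such sites (2.57%). Larval CP190 overlapped 1 of 3 larval CTCF peaks at the members (59.8% of that list), 2 of 4 larval Pita peaks (70.7%) and 1 of 9 larval Su(Hw) peaks (34.9%). It also overlapped 1 of 2 adult CTCF peaks (57.4%), 3 of 4 adult Pita peaks (63.6%) and 0 of 7 adult Su(Hw) peaks (36.9%).

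Adult and larval Su(Hw) peaks mostly coincided, weak ones included. At the members 7 of 7 adult Su(Hw) peaks had a larval partner (93.7% of the list) and 8 of 9 larval ones an adult partner (86.9%), that of the dnc site lying past the window. Of these paired peaks 5 of the 7 adult and 5 of the 8 larval ones were below the median fold of their list. For Pita 2 of 4 adult peaks (69.8%) and 2 of 4 larval peaks (84.7%) were paired, and for CTCF 1 of 2 adult (84.3%) and 1 of 3 larval peaks (69.4%). The 11 pairs had summits 3 to 22 bp apart, where the median over each whole list of pairs was 8 bp for CTCF, 9 bp for Pita and 10 bp for Su(Hw). The 8 peaks without a partner had folds of 2.03 to 9.91, and 7 of them were below the median of their list. The exception was the adult Pita peak of 9.91-fold between kuz and ics.

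A further 50 genes of the pathway, 26 factors and 24 targets, gave CP190 at 24 of the factors and 11 of the targets, so at 35 of 50 genes (70%) in all, against 62.5% of protein-coding genes. Adult CTCF was at 7 (14%, against 10.2%) and larval CTCF at 6 (12%, against 12.3%). Adult Pita was at 11 (22%, against 25.0%) and larval Pita at 10 (20%, against 22.0%). Su(Hw) was at 10 at each stage (20%), against 27.3% for adults and 28.9% for larvae. That Su(Hw) count depends on the window, since with 10 kb on either side it was 17 at each stage. The shares of all genes given here are for the 5 kb window only. Most of these pooled shares were near those of all genes, and none of the differences was tested. The pooled CP190 share joins unlike parts, 24 of 26 factors and 11 of 24 targets. The main targets of Notch, the 11 genes of the Enhancer of split complex, whose windows overlap and share peaks, had no CTCF or Pita peak. CP190 was present at 5 of them, Su(Hw) at 2, and 6 had no peak of any list. Of protein-coding genes under 10 kb, as these are, 8.40% had adult and 10.3% larval CTCF, 22.7% had adult and 20.0% larval Pita, and 60.2% had CP190. Su(Hw) was at 22.8% of genes of that length in adults and 24.3% in larvae, and 70.7% had a peak of some list. The factor gene nej, for the coactivator CBP, was noticed after its values were seen, with adult CTCF at 176-fold, just above the 174-fold of N. Unlike N, nej had no larval CTCF peak in its window. The genes with peaks in most lists were kirre, ct, dx and numb. The window of kirre, a gene of 394149 bp, takes in the 5′ site of N, whose peaks are its highest for CTCF and Pita. The homeobox gene ct had CP190 at 51.2-fold, adult Pita at 38.2-fold and larval Pita at 32.8-fold. At dx, which encodes the Notch regulator Deltex, CP190 reached 36.6-fold, adult Pita 24.3-fold and larval Pita 27.6-fold. At numb, the inhibitor of Notch in dividing precursors, adult Su(Hw) reached 16.2-fold, larval Su(Hw) 12.2-fold and CP190 5.10-fold.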

How the data were processed

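ChIP-seq peaks came from 7 deposited lists with the 20 columns that an IDR run on a pair of peak lists writes. The submitters' processing notes name dm6 as the build and, without roles or versions, MACS2, Bowtie2 and Picard among other tools. Of the deposited columns, the fold enrichment (a ratio to an unnamed control), the −log10 q and the IDR score (−log10 of the global IDR) were used. The sources used here do not say which samples entered a list, so replicates could not be set against each other and depth is unknown. The CP190 antibody is a rat one in the protocols and a rabbit one in the labels of wild-type samples.

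Gene spans were taken from a RefSeq gene table of assembly Release 6 plus ISO1 MT, which dm6 also denotes. All 10 members were matched by locus tag, Dl under the symbol Delta, which the table uses, and of the other pathway genes 50 were matched and 1 was not. The table gives neither strand nor exons, so positions are given to the lower- or upper-coordinate end, and that the lower-coordinate end of N is its 5′ end is textbook knowledge. Peaks on the arms of chromosomes 2 and 3 and on chromosomes 4, X and Y entered, positions were counted from 1, and peaks shared a place when they overlapped by 1 bp. Counts were made with Python 3.11.15 and pandas 2.3.3, and the overlap code was tested on simulated intervals. Every member and every peak in its window is named or counted, and of the other pathway genes those with peaks in the most lists. The planned search for sequence words was not run, since no genome sequence was used here. The members and gene lists were chosen with earlier results of these data known, so shares of all genes are given as background and no test was made.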

Additional observations from a re-analysis of the deposited data

How the results depend on the processing

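Windows of 2 kb and 10 kb, peaks placed by summit, the more significant peaks alone (a −log10 q no lower than their list's median), an IDR of at most 0.01, a shared stretch of 0.5 of the shorter peak and summits within 200 bp were tried. With only the more significant peaks, the 43 peaks became 19, the 20 pairs of a member and a list 13, the 24 sites 10, the 11 pairs of an adult and a larval peak 6, the 4 larval C2H2 peaks with CP190 became 1, and the 89 pairs of another pathway gene and a list 53. With a window of 2 kb the larval C2H2 peaks with CP190 numbered 2, the peak near dnc and that beside kuz lying farther out. The other settings moved these totals by at most 1.5 times, with 37 to 48 peaks and 21 to 28 sites. Of 115 recomputed counts for single lists or other summaries 99 stayed within 1.5 times, among them those that the IDR limit could not change. No paired analysis was possible because the lists are not tied to samples. Depth is unknown, so the absence of a peak does not show the absence of binding.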
